A study of Mus musculus with 6 samples.

Results

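The 32 genes described here carry pyruvate into the mitochondrion and turn the tricarboxylic acid (TCA) cycle. They were chosen by name from the known pathway, and all 32 were present among the 22310 genes of the deposited table. They comprise both subunits of the mitochondrial pyruvate carrier, the pyruvate dehydrogenase complex with its kinases and phosphatases, pyruvate carboxylase, enzymes of the cycle with cytosolic counterparts, and the malic enzymes. RNA was sequenced from mouse mammary tumor cells of the MMTV-PyMT model, in which the MMTV promoter drives the polyoma middle T oncogene mainly in mammary epithelium. The mice were on the FVB/N background, the genotype of every sample was given as WT, and both populations came from transgenic tumors. Tumor cells were kept overnight in DMEM/F12 containing 2% serum, human EGF (20 ng/ml), insulin (10 µg/ml) and antibiotics before sorting, so both populations had passed through the same medium. MIC libraries (metastasis-initiating cells) came from the Lin−CD24+CD90+ gate and nonMIC libraries from the Lin−CD24+CD90− gate, with 3 libraries of each, numbered 1 to 3. The comparison asks whether transcripts of mitochondrial fuel oxidation differ between the populations.

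Pyruvate made by glycolysis crosses the inner mitochondrial membrane through a carrier built of Mpc1 and Mpc2. Inside, the pyruvate dehydrogenase complex converts it to acetyl-CoA, kinases switch that complex off by phosphorylation and phosphatases switch it on again, while pyruvate carboxylase makes oxaloacetate instead. Citrate synthase joins acetyl-CoA to oxaloacetate, and the cycle then oxidizes citrate back to oxaloacetate, yielding reduced carriers for the respiratory chain; tumor cells are known to use its intermediates for lipid and amino acid synthesis as well.

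Values are read counts that were scaled so that each library sums to 35000000, called scaled counts here. The libraries held 32458499, 31467281 and 51759769 recovered reads in MIC 1, 2 and 3 and 33069114, 33126717 and 49904738 in nonMIC 1, 2 and 3. The lowest count of any of the 32 genes was 38 reads, for Me3 in nonMIC 1, so that gene carries the largest counting error. Thy1, which encodes CD90, measured 1509, 301 and 755 scaled counts in the MIC libraries and 16.9, 21.1 and 12.6 in the nonMIC libraries. It was higher in MIC in all 3 pairs, by a mean of 5.32 on the log2 scale (SE 0.62 without a replicate block; limma adjusted p = 0.816 without the block and 5.31e-05 with it). Cd24a, selected in both gates, lay between 11309 and 19406 scaled counts in all 6 libraries.

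The luminal epithelial markers were abundant throughout: Epcam, Cdh1, Krt8, Krt18 and Krt19 summed to 589774, 211658 and 448366 scaled counts in MIC 1, 2 and 3 and to 697460.0, 277193 and 423011 in nonMIC 1, 2 and 3, with Krt18 the largest in 4 libraries and Krt8 in MIC 1 and nonMIC 2. The basal or myoepithelial list (Krt5, Krt14, Krt17, Trp63, Acta2, Myh11, Oxtr) summed to 404281, 23691 and 71237 in MIC and 140300.0, 23967 and 46873 in nonMIC; Acta2 was the largest in MIC 1 and Krt17 in the other 5 libraries, with 4 of 7 genes higher in MIC in all 3 pairs. Of these 7 genes, 3 (Krt5, Acta2, Myh11) passed limma with the replicate block and 0 without it. With the block, edgeR also called Trp63 (adjusted p = 0.00182). Fibroblast markers were higher in MIC in all 3 pairs for 4 of 7 genes and summed to 2154, 669.6 and 2003 against 1107, 739 and 585, with Col1a2 the largest in replicate 1 and Col1a1 in replicates 2 and 3. Limma called 0 of these genes with or without the block. With the block, edgeR called Col1a2 (adjusted p = 7.89e-12) and Dcn (0.0152), and DESeq2 called Col1a2 (2.42e-05). Leukocyte markers, with Lyz2 the largest in replicate 2 and Cd68 in replicates 1 and 3, summed to 91.7, 1926 and 297 in MIC and 131, 1092 and 357 in nonMIC, so replicate 2 was highest in both populations, while Ptprc, the defining leukocyte gene, stayed at 10.01 or below. Endothelial markers summed to at most 50.7, and adipocyte and brown adipocyte markers to at most 21.1. The part of these marker differences in the results below was not tested, and a smaller share of a cell type cannot be told apart from less RNA per cell in such bulk samples.

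No gene of the 32 passed the adjusted threshold of 0.05 between MIC and nonMIC. In the fit that blocks on replicate number, the smallest p values belonged to Mpc2, a subunit of the pyruvate carrier, and Pdk4, a kinase of pyruvate dehydrogenase, with mean log2 differences of 0.65 and 0.69. Most members differed little: 29 of 32 mean log2 differences lay within 0.5 of 0 (90.6%, beside 74.6% of all genes), and the median over the members was -0.03 beside -0.04 over all genes. The members also had higher levels, with a median of 746 scaled counts per kilobase of exon beside 37.3 over all genes. Genes of like level were not compared, so the smaller spread cannot be read as a trait of this pathway. Mpc1 and Me3 followed at the high end of the differences, and Idh2, Ogdh and Pdk1 at the low end.

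In counts, limma called 0 of 32 members and 0 of 22310 genes (0% of genes), with 0 members at an unadjusted p under 0.05 beside 1.44% of genes. With the replicate number as a block, limma called 0 members and 29 genes (0.13%), and 2 members had an unadjusted p under 0.05, Mpc2 and Pdk4 (6.25%), beside 11.2% of genes. Both were higher in MIC, a direction that 5.24% of genes shared at that threshold. Those members depended on single pairs: with the block, Mpc2 and Idh2 were under 0.05 without pair 1, 0 members without pair 2, and Mpc2, Pdk4 and Fh1 without pair 3 (6.25%, 0% and 9.38% of members, beside 3.70%, 9.85% and 10.2% of all genes). On the recovered reads, edgeR called 0 members without the block and 0 with it, and DESeq2 likewise 0 and 0, while over all genes edgeR called 0 and 315 and DESeq2 1 and 133. At an unadjusted p under 0.05, edgeR and DESeq2 each counted 0 members without the block (1.32% and 1.19% of all genes) and the same 2 with it (11.7% and 8.58% of all genes).

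By sign, 6 members were higher in MIC in all 3 pairs (12.5% of all genes were) and 8 were lower in all 3 (18.8% of all genes). The 6 were Mpc1, Mpc2, Pdk3, Suclg1, Fh1 and Me3, and the 8 were Pdha1, Pdp2, Cs, Aco1, Idh2, Ogdh, Dlst and Me1. Many of these differences were so small that the scaling decided their sign: under TMM rescaling the counts were 6 and 3 (14.7% and 16.4% of all genes) and under quantile normalization 7 and 5 (14.9% and 16.45%). A filter at the median of mean values gave 5 and 8 members (13.1% and 28.5% of the genes kept). Under all 3 scalings, 4 genes kept the higher sign in each pair (Mpc1, Mpc2, Fh1, Me3) and 1 the lower (Dlst). Only Fh1 had groups of values that did not overlap, 1 of 32 members beside 6.24% of genes.

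The 3 pairs differed in how far apart their populations stood. Taken without sign, the median log2 difference of the members in pairs 1, 2 and 3 was 0.20, 0.27 and 0.05, and that of all genes 0.48, 0.45 and 0.21. In pair 3, 25 of 32 members were within 0.1 of 0 (78.1%, beside 32.4% of all genes), compared with 10 in pair 1 and 8 in pair 2 (31.2% and 25%, beside 16.9% and 18.2%). Here too, genes of like level were not compared. MIC exceeded nonMIC for 21 members in pair 1, 14 in pair 2 and 11 in pair 3 (65.6%, 43.8% and 34.4%), beside 45.2%, 53.5% and 35.8% of all genes. The same replicate numbers also carried most of the variation: the replicate number took more than 50% of the sum of squares of log2 values for 23 members (71.9%, beside 66.1% of all genes), and the population more than 50% for 3 (9.38%, beside 7.41%), namely Dld, Dlst and Fh1.

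**Figure D1:**
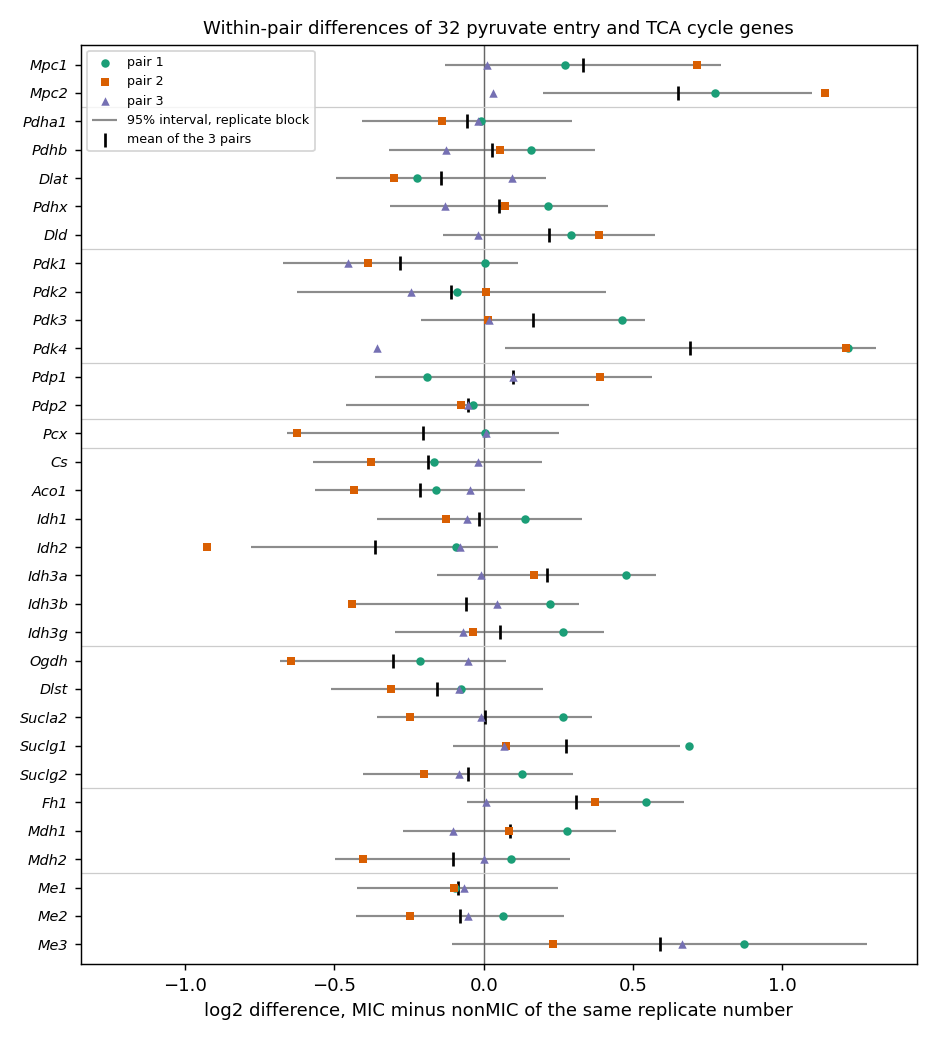
Within-pair log2 differences (MIC minus nonMIC, horizontal axis) of the 32 genes (vertical axis, grouped by role), with circles, squares and triangles for pairs 1, 2 and 3, a black tick for their mean and a grey line for the 95% interval of the limma fit with the replicate block. The intervals of Mpc2 (0.20 to 1.10) and Pdk4 (0.07 to 1.32) lie above 0, and the triangles of pair 3 cluster near 0.

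Transcripts of both carrier subunits had higher mean log2 values in MIC, and neither passed the test. Mpc2 (ENSMUSG00000026568, chr1:165460637-165481214, plus strand, GRCm38) measured 2037, 2003 and 804 scaled counts in MIC 1, 2 and 3 and 1191, 905 and 788 in nonMIC 1, 2 and 3. MIC 1 and 2 stood well above all other libraries, whereas the members of pair 3 were nearly equal, so that the groups overlapped only through MIC 3. Its log2 differences were 0.77, 1.14 and 0.03 in pairs 1, 2 and 3, with a mean of 0.65 (SE 0.39 without the block; SE 0.21 and 95% interval 0.20 to 1.10 with it). The limma adjusted p was 1.00 without the block and 0.417 with it; over all alternatives it ranged from 0.0596 (edgeR with the block) to 1.00, and the log2 difference from 0.40 to 1.09, the highest without MIC 3.

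Mpc1 (chr17:8282904-8297661), the partner without which the carrier is unstable, measured 657, 321 and 333 scaled counts in MIC and 544, 195 and 331 in nonMIC. Replicate 1 was highest in both populations, and the spread between replicate numbers took 84.8% of the sum of squares. Its mean log2 difference was 0.33 (95% interval -0.13 to 0.80 with the block), resting on pairs 1 and 2 (0.27 and 0.71) with 0.01 in pair 3. The mean turned to -0.002 without MIC 1 and to -0.04 without nonMIC 2, each of which leaves the same-numbered partner in the fit. Without the whole of pair 1, 2 or 3, in the fit with the block, it stayed positive at 0.36, 0.14 and 0.49. A processed pseudogene, Mpc1-ps, was listed separately at 215.7, 89 and 63.6 in MIC and 157, 47.5 and 54.7 in nonMIC, so reads of the parent gene may have been divided between both entries. An antisense transcript covering 23.1% of the exon bases of Mpc1, 4930506C21Rik, reached at most 13.3 scaled counts.

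Summed per kilobase of merged exon, the carrier transcripts were at 593, 427 and 269.6 scaled counts in MIC and 423, 217 and 266 in nonMIC. The ratio of Mpc1 to Mpc2 per kilobase was 1.14, 0.566 and 1.46 in MIC and 1.61, 0.761 and 1.48 in nonMIC, lower in MIC in all 3 pairs (exact permutation p = 0.50, where 3 against 3 cannot go below 0.1). That permutation ignores the pairs. By sign flips within pairs p was 0.25, the smallest that 3 pairs allow. Merged exons make Mpc2 long at 7344 bases against 1025 in its principal transcript; with principal lengths, chosen after seeing the data, Mpc2 ranked above Mpc1.

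No subunit of the pyruvate dehydrogenase complex passed the test. Pdha1, the catalytic alpha subunit that the kinases phosphorylate, was the highest of the 5 per kilobase and measured 7647, 7159.7 and 7805 scaled counts in MIC and 7690.3, 7887 and 7908 in nonMIC. All 6 libraries were close together and the groups overlapped, with log2 differences of -0.01, -0.14 and -0.02. The mean was -0.06 (SE 0.16, 95% interval -0.41 to 0.30 with the block). Map3k15 overlaps 16.1% of the exon bases of Pdha1 on the opposite strand and was at 144 to 265 scaled counts.

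The other subunits had mixed signs. Pdhb, the catalytic beta subunit, ranged from 2734 to 3140.0 scaled counts, higher in MIC in pairs 1 and 2 and lower in pair 3 (mean log2 difference 0.03). Dlat, the acetyltransferase core, ranged from 2863 to 4393 and was lower in pairs 1 and 2 (mean -0.14), and Pdhx, which anchors the dehydrogenase to that core, ranged from 969 to 1365 (mean 0.05). Dld, the lipoamide dehydrogenase shared with other 2-oxo acid complexes, ranged from 3741 to 5049 and had the largest mean of the 5, 0.22 (95% interval -0.13 to 0.57 with the block). Dld was higher in MIC in pairs 1 and 2 (0.29 and 0.39) and nearly equal in pair 3 (-0.02). Summed over the 5 subunits, the level per kilobase was 5161, 4945 and 4974 in MIC and 4949, 4910.4 and 5067 in nonMIC.

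Among the kinases that inactivate the complex, Pdk4 varied most and Pdk3 was the most abundant per kilobase. Pdk4 (chr6:5483351-5496309, minus strand), known as the isozyme induced by fasting and fatty acids, measured 171, 729.6 and 694 scaled counts in MIC and 73, 314 and 889 in nonMIC. MIC exceeded nonMIC by 1.22 and 1.21 in pairs 1 and 2 and was below it in pair 3 (-0.36), while the replicate number took 84.6% of the sum of squares. The mean log2 difference was 0.69 (SE 0.94 without the block; SE 0.29 and 95% interval 0.07 to 1.32 with it), with a limma adjusted p of 1.00 and 0.423. Over all alternatives the adjusted p ranged from 0.120 to 1.00, and the log2 difference from -0.25 to 1.54 in 22 alternatives. It was negative in 1 of them, when nonMIC replicate 1 was left out and MIC replicate 1 kept. Leaving out the whole of pair 1, 2 or 3, in the fit with the block, gave 0.43, 0.43 and 1.22.

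Pdk3 measured 1431, 1034 and 1345 scaled counts in MIC and 1038, 1024 and 1329.7 in nonMIC. Its higher value in MIC came from pair 1 (0.46), with 0.01 and 0.02 in the other pairs, and a mean of 0.16. Pdk1, a target of hypoxia-inducible factor, ranged from 475 to 1069.7. It was equal in pair 1 (0.00) and lower in MIC in pairs 2 and 3 (-0.39 and -0.46). Its mean was -0.28 (95% interval -0.67 to 0.11 with the block), but -0.02 without MIC 3 and -0.60 without MIC 1. When the whole of pair 1, 2 or 3 was left out, in the fit with the block, the mean was -0.42, -0.23 and -0.19. Pdk2, widely expressed in other tissues, ranged from 126 to 301, with replicate 2 highest in both populations (mean -0.11).

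As a share of the 4 kinases per kilobase, Pdk3 made up 71.2%, 51.3% and 63.6% in MIC and 66.9%, 58% and 57.3% in nonMIC. Pdk4 made up 6.22%, 26.4% and 23.9% in MIC and 3.43%, 13% and 28% in nonMIC, so its share differed more between replicate numbers than between populations. The ratio of Pdk4 to Pdk2 was 1.22, 2.18 and 4.72 in MIC and 0.489, 0.942 and 5.1 in nonMIC (mean log2 difference 0.81; exact permutation p = 0.50). Pdk3 stood above Pdk2 in every library, by 4.21 to 14.0 times per kilobase.

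**Figure D2:**
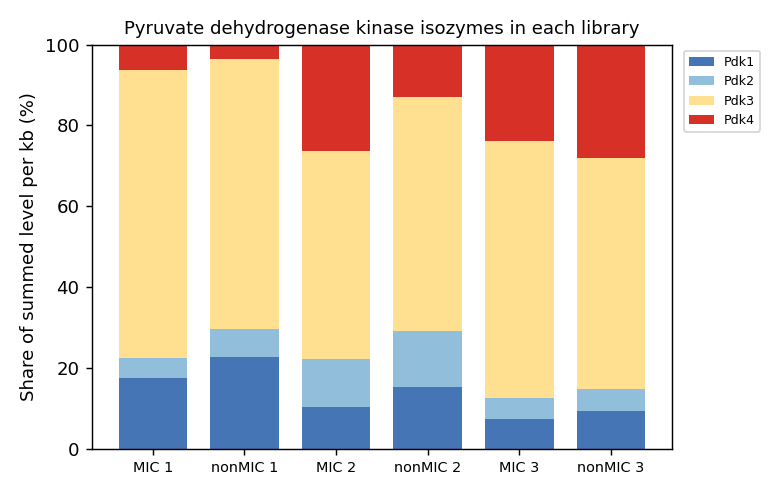
Share of each kinase isozyme (vertical axis, percent of the summed scaled counts per kilobase of Pdk1 to Pdk4) in each of the 6 libraries (horizontal axis, pairs side by side). Pdk3 is the largest band everywhere, from 51.3% to 71.2%, and the Pdk4 band is narrowest in replicate 1 of both populations (6.22% and 3.43%).

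The phosphatases that reactivate the complex were low and did not separate the populations. Pdp2 measured 542, 293 and 644 scaled counts in MIC and 556, 309 and 668 in nonMIC. Its pair differences of -0.03, -0.08 and -0.05 were all negative but did not keep that sign in each pair under TMM or quantile scaling, and replicate number took 99.7% of its sum of squares. Pdp1, the calcium-sensitive form, ranged from 284 to 384 with mixed signs (mean 0.10). The 4 kinases summed to 4.74, 5.77 and 4.57 times the 2 phosphatases per kilobase in MIC and 3.40, 5.79 and 5.02 times in nonMIC. Against Pdha1, the summed kinases were at 0.383, 0.411 and 0.395 in MIC and 0.294, 0.326 and 0.428 in nonMIC (mean log2 difference 0.20; exact permutation p = 0.40).

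Pyruvate carboxylase, the anaplerotic entry, differed in 1 pair. Pcx measured 496, 305 and 358 scaled counts in MIC and 494, 470.2 and 356 in nonMIC. Pairs 1 and 3 were equal within 0.01 and pair 2 was lower in MIC (-0.62), giving a mean of -0.20 (95% interval -0.66 to 0.25 with the block). Per kilobase it stood at 0.0334 to 0.0510 of Pdha1 in the 6 libraries.

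Citrate synthase and the enzymes that lead to oxoglutarate were, for 3 of 7, lower in MIC in all 3 pairs (18.8% of all genes were). Of these, Cs and Aco1 did not keep that sign in each pair under TMM rescaling, nor Idh2 under quantile normalization. Cs, which opens the cycle, measured 14441, 11057 and 17882 scaled counts in MIC and 16192, 14374 and 18104 in nonMIC. Replicate 2 was lowest and replicate 3 highest in both populations, and the mean log2 difference was -0.19 (95% interval -0.57 to 0.20 with the block). Over the alternatives it ran from -0.35 to -0.0074, the latter without MIC 2. Aco1, the cytosolic aconitase that doubles as iron regulatory protein, followed the same order, with 4271, 2465 and 5523 in MIC and 4767, 3334 and 5697 in nonMIC. Its differences were -0.16, -0.44 and -0.04, with a mean of -0.21 that turned to 0.11 without MIC 2. Without the whole of pair 2, in the fit with the block, that mean was -0.10. The ratio of Aco1 to Cs per kilobase was nearly the same within pairs, between 0.287 and 0.404 over the libraries.

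Idh2, the mitochondrial NADP-dependent isocitrate dehydrogenase, had the lowest mean difference of all 32 genes. It measured 3107, 1387 and 3594 scaled counts in MIC and 3312, 2636 and 3796 in nonMIC. The low MIC 2 library set this value: the differences were -0.09, -0.93 and -0.08, with a mean of -0.37 (SE 0.19, 95% interval -0.78 to 0.05 and limma adjusted p = 0.485 with the block). Leaving out MIC replicate 2 turned the sign of the mean, to 0.06. Without the whole of pair 2, in the fit with the block, the mean stayed negative at -0.09.

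Idh1, the cytosolic counterpart, ranged from 1483 to 4777 and followed the replicate number almost completely (99.3% of the sum of squares), with signs mixed and a mean of -0.01. The ratio of Idh1 to Idh2 per kilobase was 0.944, 0.998 and 1.19 in MIC and 0.805, 0.573 and 1.18 in nonMIC, higher in MIC in all 3 pairs (exact permutation p = 0.40). The NAD-dependent enzyme of the cycle, built of Idh3a, Idh3b and Idh3g, had mixed signs in each subunit. Idh3a, its catalytic subunit, ranged from 5898 to 8678 (mean 0.21, higher in MIC in pairs 1 and 2), Idh3b from 3560.4 to 5616 (mean -0.06) and Idh3g from 2604 to 3211 (mean 0.05). The ratio of Idh3a to Idh2 per kilobase was 1.43, 2.44 and 0.9498 in MIC and 0.962, 1.14 and 0.905 in nonMIC, with a mean log2 difference of 0.58 (exact permutation p = 0.30).

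The step from oxoglutarate to succinate held 1 member higher and 2 lower in all 3 pairs (12.5% and 18.8% of all genes were). Of these, only Dlst kept its sign in each pair under TMM and quantile scaling. Ogdh, the first subunit of the oxoglutarate dehydrogenase complex, measured 6621, 4645 and 9022 scaled counts in MIC and 7684, 7272 and 9357 in nonMIC. MIC 2 was again the lowest library, and the differences were -0.21, -0.65 and -0.05 (mean -0.30, SE 0.18, 95% interval -0.68 to 0.07 with the block). Without MIC 2 the mean was -0.06. Dlst, the succinyltransferase core of the same complex, measured 6887, 6234 and 7373 in MIC and 7252, 7736 and 7809 in nonMIC. Its differences were smaller (-0.07, -0.31 and -0.08), and only 1 of the MIC libraries stood above the lowest nonMIC library.

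Suclg1, the alpha subunit common to both succinyl-CoA ligases, measured 4639, 3695 and 2907 in MIC and 2882, 3508 and 2774 in nonMIC. Pair 1 carried most of its difference (0.69, against 0.07 and 0.07; mean 0.28, 95% interval -0.10 to 0.66 with the block). The beta subunits that set nucleotide use had mixed signs: Sucla2, for ADP, ranged from 2069.9 to 3033 (mean 0.00) and Suclg2, for GDP, from 1419 to 1960.3 (mean -0.05). Their ratio per kilobase was narrow, 1.63 to 1.87 in the 6 libraries.

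From fumarate to oxaloacetate, Fh1 was higher in MIC in all 3 pairs. Fh1, fumarate hydratase, measured 4266, 4203 and 3315 scaled counts in MIC and 2923, 3247 and 3295 in nonMIC. All MIC libraries were above all nonMIC libraries, though MIC 3 exceeded nonMIC 3 by very little, and the differences were 0.55, 0.37 and 0.01. The mean was 0.31 (SE 0.17, 95% interval -0.05 to 0.67 and limma adjusted p = 0.498 with the block).

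Mdh2, the mitochondrial malate dehydrogenase, was the most abundant of the 32 genes per kilobase and measured 16914, 12912 and 13446 scaled counts in MIC and 15868, 17079 and 13436 in nonMIC. The groups overlapped fully, with differences of 0.09, -0.40 and 0.00 (mean -0.10). Mdh1, the cytosolic form of the malate-aspartate shuttle, ranged from 5183 to 8070.3 with mixed signs (mean 0.09). Per kilobase of merged exon, Mdh1 was at 0.421 to 0.833 of Mdh2. With principal transcript lengths, chosen after seeing the data, mean levels were 3145 for Mdh1 and 10263 for Mdh2, a ratio below that range.

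Of the malic enzymes, which return malate to pyruvate, Me1 was the most abundant per kilobase. Me1, the cytosolic NADP-dependent form, measured 3343, 2612 and 3422 scaled counts in MIC and 3575, 2801 and 3579 in nonMIC, with differences of -0.10, -0.10 and -0.06. The sign was the same in each pair and the size small (mean -0.09, 95% interval -0.43 to 0.25 with the block). Me2, a mitochondrial form, ranged from 1879 to 2400.5 with mixed signs (mean -0.08).

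Me3, the other mitochondrial form, was the lowest of the 32 genes per kilobase, at 74.4, 127 and 59.5 scaled counts in MIC and 40.2, 108 and 37.2 in nonMIC. Replicate 2 was highest in both populations and MIC the higher of each pair (0.87, 0.23 and 0.66; mean 0.59, 95% interval -0.11 to 1.28 and limma adjusted p = 0.498 with the block). The ratio of Me3 to Me2 per kilobase was higher in MIC in all 3 pairs (mean log2 difference 0.68; exact permutation p = 0.30). Of the 14 ratios tested, 4 were higher and 1 lower in MIC in all 3 pairs, and the smallest permutation p adjusted over the 14 ratios was 0.778. Each ratio with 1 direction in all 3 pairs had a sign-flip p of 0.25, the smallest that 3 pairs allow.

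**Figure D3:**
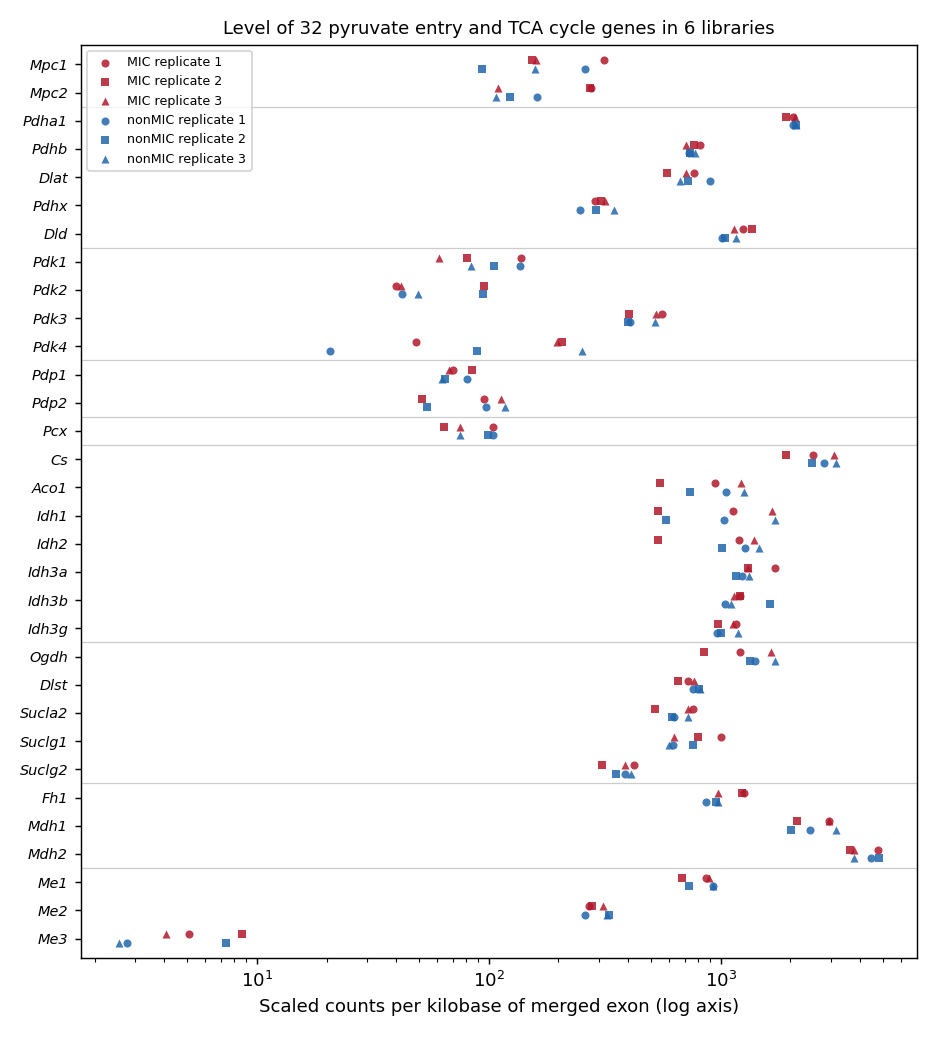
Scaled counts per kilobase of merged exon (horizontal log axis) of the 32 genes (vertical axis, grouped by role) in each of the 6 libraries; red marks are MIC, blue marks nonMIC, and the marker shape gives the replicate number. Mean levels run from 5.08 for Me3 to 4195 for Mdh2, and for most genes marks of the same shape lie together.

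Per kilobase, the order of mean levels put Mdh2 (4195), Cs (2655), Mdh1 (2599) and Pdha1 (2058) at the top and Me3 (5.08), Pdk2 (60.7), Pdp1 (71.9) and Pcx (87) at the bottom. The median member was at 746 scaled counts per kilobase, compared with 37.3 over all genes. Using the length of the principal transcript in place of merged exons, Mdh2, Cs and Mdh1 kept the first 3 places, Idh3a took the fourth and Pdha1 moved to the fifth. All ratios between genes given here rest on merged exons too, so their levels depend on the lengths used.

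Of 39 other genes of the pathway listed, 38 were in the table, and limma, edgeR and DESeq2 called 0 with or without the block. At an unadjusted p under 0.05 limma counted 1 of the 38 without the block (2.63%, beside 1.44% of all genes) and 5 with it (13.2%, beside 11.2%), edgeR 1 and 5 (1.32% and 11.7% of all genes) and DESeq2 1 and 3 (1.19% and 8.58%). The 5 of edgeR with the block were partly others: Sdhd, Sdhaf2 and Slc25a10 as in limma, with Slc16a3, which had the smallest p there, and Sdhaf4, both of mixed sign over the pairs and named after their values were seen. In limma the smallest p was that of Sdhd, a membrane anchor of succinate dehydrogenase, the enzyme between succinate and fumarate, which measured 7439, 7161 and 5982 scaled counts in MIC and 4173, 4572 and 5371 in nonMIC. Every MIC library was above every nonMIC library (mean log2 difference 0.55, 95% interval 0.16 to 0.93 and limma adjusted p = 0.417 with the block; 0.164 to 1.00 over the alternatives). The other subunits Sdha, Sdhb and Sdhc had mean differences of -0.14, 0.15 and 0.08, and the assembly factor Sdhaf2 had 0.41 (adjusted p = 0.430 with the block in limma, 0.326 to 1.00 over the alternatives).

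Of the 8 genes of the malate-aspartate and citrate shuttles, 3 had lower values in MIC in all 3 pairs and 5 had mixed signs; of all 38 other genes 5 were lower in all 3 pairs (13.2%, beside 18.8% of all genes) and 6 higher (15.8%, beside 12.5%). Slc25a1, the mitochondrial citrate carrier, measured 2182.5, 1677 and 2151 in MIC and 2885, 2413 and 2468 in nonMIC. Slc25a10, the dicarboxylate carrier, measured 1478, 1046 and 1373 in MIC and 1937, 1841 and 1503 in nonMIC. Neither gene had overlapping groups, with mean log2 differences of -0.38 and -0.45 and limma adjusted p of 0.425 and 0.423 with the block. Acly, ATP citrate lyase, measured 13369, 9514 and 25205 in MIC and 19020.3, 14478 and 27519.7 in nonMIC, overlapping between groups but lower in each pair (mean -0.41, limma adjusted p = 0.433 with the block). Their adjusted p ranged over the alternatives from 0.425, 0.308 and 0.391 to 1.00. In limma with or without the block, Sdhd, Sdhaf2, Slc25a1, Slc25a10 and Acly were the only genes of the 38 at an unadjusted p under 0.05.

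Upstream sequences were read for all members with a matched start, and 4 of those that differed in the same direction in all 3 pairs are shown. RefSeq (GRCm38.p6) held a start for 29 of the 32 genes; Pdp1, Idh3a and Me2 were not matched. In the 250 bases before the first listed start, CCAAT on either strand was found for 17 of 29 members (58.6%) beside 34.5% of all 27025 genes, and GGGCGG on either strand for 20 of 29 (69%) beside 32.9%. The binding sequence of NRF1 was found for 1 member, Sucla2 (3.45% beside 3.86% of genes), TCAAGGTCA (bound by ERRα) for 0 (0.366% of genes), CACGTG for 3 (10.3% beside 6.05%) and TGACGTCA for 2 (6.90% beside 1.62%). The 27025 genes were not matched to the members in expression level or base composition. Whether any excess is particular to this pathway was not tested. Capitals mark CCAAT or GGGCGG, or their reverse complements, in the stretches below, which hold no annotated exon base and read 5′ to 3′ on the gene's strand. Shown are Mpc1 (chr17:8283537-8283761, plus strand, inside the bounds of a longer annotated transcript) and Fh1 (chr1:175625636-175625885, minus strand), higher in MIC in all 3 pairs, and Cs (chr10:128337477-128337726, plus strand) and Pdp2 (chr8:104591222-104591450, plus strand), lower in all 3.
Mpc1: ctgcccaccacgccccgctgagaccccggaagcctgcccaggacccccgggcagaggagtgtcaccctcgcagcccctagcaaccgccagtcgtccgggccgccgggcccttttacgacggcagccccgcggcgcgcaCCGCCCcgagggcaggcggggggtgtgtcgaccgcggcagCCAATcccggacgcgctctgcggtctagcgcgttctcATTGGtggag
Fh1: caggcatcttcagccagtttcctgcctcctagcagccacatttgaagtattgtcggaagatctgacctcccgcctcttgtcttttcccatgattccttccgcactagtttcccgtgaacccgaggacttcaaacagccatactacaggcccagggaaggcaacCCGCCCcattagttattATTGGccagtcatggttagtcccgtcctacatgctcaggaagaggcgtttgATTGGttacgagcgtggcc
Cs: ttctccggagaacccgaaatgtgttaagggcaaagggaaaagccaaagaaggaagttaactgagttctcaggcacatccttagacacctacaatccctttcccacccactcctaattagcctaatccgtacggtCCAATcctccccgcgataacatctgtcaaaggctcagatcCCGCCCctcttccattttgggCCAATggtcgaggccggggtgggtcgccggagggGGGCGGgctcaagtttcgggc
Pdp2: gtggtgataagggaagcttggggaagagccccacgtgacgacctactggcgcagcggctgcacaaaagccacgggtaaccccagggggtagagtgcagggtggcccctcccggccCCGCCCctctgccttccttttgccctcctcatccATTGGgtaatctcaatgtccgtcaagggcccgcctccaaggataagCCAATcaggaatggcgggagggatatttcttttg
These 4 genes were picked after both strings had been found upstream of them. In the full 250 bases, both stood upstream of 4 of the 6 members higher in all 3 pairs and of 3 of the 8 lower in all 3, and the other 7 of the 14 lacked at least 1 string.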

How the data were processed

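RNA from 3 MIC and 3 nonMIC samples was made into stranded mRNA libraries (TruSeq) and sequenced as paired 75 nt reads. The study's methods describe alignment with Bowtie2 to the mouse transcriptome (GRCm38/mm10), whereas the submitters' processing notes name STAR and HTSeq; versions were not given in the sources used here. The signal deposited by the authors is gene counts scaled to 35000000 per library; every gene listed was above 0 in at least 3 libraries. The design had assumed a normalized unit, which was kept. Values were whole multiples of 1 read (tolerance 0.01) for 99.991% to 100% of genes, so reads were recovered. Symbols, positions and exon lengths came from GENCODE vM21 (GRCm38).

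The main test was limma 3.58.1 (lmFit, eBayes with trend, R 4.3.3) on log2(value + 1), Benjamini-Hochberg over all 22310 genes; fold changes on this scale understate low genes. edgeR 4.0.16 and DESeq2 1.42.0 were run on recovered reads, each with and without a replicate block, and the code was tested on simulated data. Other alternatives were the pseudocount, a low-value filter, scaling, the trend and leaving out libraries or pairs. Ratios were compared by exact two-sided permutation without the pairs, and by sign flips within pairs. The labels give both populations the numbers 1 to 3. Departures from group means correlated over genes at 0.573, 0.668 and 0.746 for same-numbered samples, so the numbers were taken as pairs. The average for other samples, -0.330, largely follows from centring on group means and adds no support. The study counts its 3 samples per population as independent experiments or tumors; separate animals were not stated.

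The members and lists were chosen with earlier results of these data known. Library values were given for members with an unadjusted p under 0.05 with or without the block, with 1 direction in all 3 pairs, or highest per kilobase in their role; other pathway genes were named at that p.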

Additional observations from a re-analysis of the deposited data

How the results depend on the processing

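With 3 libraries per group, 20 splits exist and an exact p cannot go below 0.1, and limma called no gene without the block. Genes called were 29 with the replicate block, 315 by edgeR with it, 1 by DESeq2, 133 by DESeq2 with it, 32 and 12 by TMM and quantile with it (both chosen after the data were seen), and 0 on leaving out any library without the block and 11, 59 and 0 on leaving out pair 1, 2 or 3 with it. The block, a pairing of same-numbered samples, changed no call of a member. Members lower in all 3 pairs were 5 after quantile normalization and 3 after TMM. The median log2 difference of members stayed within the SD of pair medians (0.115). Of 813 single-gene values, 47 changed sign, 38 of them on leaving out. The others were Pdp2 (DESeq2 0.0049), Idh1 (quantile 0.0386 with or without the block, edgeR 0.0296, DESeq2 0.0583, with the block 0.0186) and Suclg2 (quantile 0.0160 with or without the block, DESeq2 0.000239). Log2 differences over the alternatives ran: Mpc1 -0.0395 to 0.70, Pdhb -0.0366 to 0.11, Pdhx -0.0687 to 0.18, Pdk2 -0.51 to 0.24, Pdk4 -0.25 to 1.54, Pdp1 -0.0459 to 0.24, Pdp2 -0.38 to 0.28, Pcx -0.40 to 0.0068, Aco1 -0.47 to 0.11, Idh1 -0.41 to 0.44, Idh2 -0.63 to 0.0569, Idh3b -0.20 to 0.15, Idh3g -0.0526 to 0.14, Sucla2 -0.13 to 0.17, Suclg2 -0.15 to 0.0807, Mdh1 -0.0636 to 0.26, Mdh2 -0.22 to 0.0466, Me1 -0.21 to 0.0368 and Me2 -0.19 to 0.0065. Those that kept their sign ran: Mpc2 0.40 to 1.09, Pdha1 -0.0812 to -0.0135, Dlat -0.26 to -0.0183, Dld 0.14 to 0.34, Pdk1 -0.60 to -0.0179, Pdk3 0.0156 to 0.31, Cs -0.35 to -0.00737, Idh3a 0.079 to 0.32, Ogdh -0.54 to -0.0599, Dlst -0.21 to -0.0787, Suclg1 0.0713 to 0.45, Fh1 0.19 to 0.46, Me3 0.28 to 1.07, Sdhd 0.40 to 0.74, Sdhaf2 0.20 to 0.61, Slc25a1 -0.46 to -0.25, Slc25a10 -0.60 to -0.26 and Acly -0.80 to -0.0976. Of 112 ratio values, 13 changed sign on leaving out: Mpc1/Mpc2 -0.66 to 0.0792, Pdk1/Pdk2 -0.72 to 0.30, Pdk3/Pdk2 -0.14 to 0.82, summed Pdk to summed Pdp -0.11 to 0.27, Aco1/Cs -0.16 to 0.12, Mdh1/Mdh2 -0.0356 to 0.46 and Me1/Me2 -0.19 to 0.16.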

Other observations

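Nnt, the proton-translocating transhydrogenase, measured 12.9, 24.5 and 16.2 scaled counts in MIC 1, 2 and 3 and 16.9, 20.1 and 25.9 in nonMIC 1, 2 and 3, a gene picked after the values had been seen.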
